A study of Mus musculus with 14 samples.

Results

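The 10 genes described here encode enzymes that make ceramide from sphingomyelin, break ceramide down, or turn it into complex sphingolipids. They were chosen by symbol, as Smpd1, Smpd2, Smpd3, Asah1, Asah2, Acer3, Sphk1, Sgpl1, Ugcg and Sgms1, and all 10 were among the 21878 genes listed for each kidney. Polyadenylated RNA was sequenced from the kidneys of 14 male C57BL/6J mice. WT diabetic mice (n = 4) and Cfb-/- diabetic mice (n = 4) received a high-fat diet with 60% of calories from fat, followed by streptozotocin (STZ, a toxin of pancreatic beta cells) at 60 mg/kg on 5 consecutive days. WT control mice (n = 3) and Cfb-/- control mice (n = 3) received chow with 10% of calories from fat and the 50 mM citrate vehicle. The labels gave 34 weeks as the time for all 14 mice without saying from when it counts, and the methods describe mice 8 weeks old at the start, 4 weeks of diet before STZ and kidneys taken 21 weeks after it. Cfb encodes complement factor B, a protease of the alternative pathway of complement. The Cfb-/- mice lacked it in the whole body, although their sample labels read "knockdown", and the diabetes was a model of high-fat feeding plus STZ.

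Sphingomyelinases cleave the headgroup from sphingomyelin and release ceramide. Ceramidases split ceramide into a fatty acid and sphingosine, sphingosine kinases phosphorylate sphingosine to sphingosine 1-phosphate, and the lyase encoded by Sgpl1 degrades that product irreversibly, which is the exit from the sphingolipid pathway. Ceramide is also used to build glucosylceramide, through Ugcg, and sphingomyelin, through Sgms1. The kidney is rich in sphingolipids, and inherited defects of several of these enzymes, among them acid sphingomyelinase and the lyase, cause human disease.

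The question was how the RNA of these enzymes differed between diabetic and control kidneys, and between Cfb-/- and WT kidneys. Levels are FPKM (fragments scaled to transcript length and to the mapped total), as deposited. Differences are log2 fold changes on the log2(FPKM + 0.1) scale with their standard error (SE), from limma fitted to 14912 genes, and a difference was called at a Benjamini-Hochberg adjusted p under 0.05 over those genes. All 10 genes passed the filter of 0.1 FPKM in at least 3 mice, Smpd3 only through the diabetic mice. The targeted gene, Cfb, measured 106 ± 38.2 FPKM (SD, n = 3) in the WT controls and 72.5 ± 11.2 FPKM (SD, n = 4) in WT diabetic mice, against 2.16 ± 0.0913 FPKM (SD, n = 3) and 1.34 ± 0.144 FPKM (SD, n = 4) in the Cfb-/- groups. The FPKM of a mouse summed to between 330246 and 488196, with the highest sum in WT control mouse 2. Kap, an abundant androgen-regulated proximal tubule transcript, held 10.2% to 13.9% of that sum in the control mice and 1.98% to 4.6% in the diabetic mice. The median of all tested genes lay above 0 in diabetic mice, at a log2 fold change of 0.29 in WT mice and 0.22 in Cfb-/- mice. It became 0.03 and -0.01 when the mice were rescaled by median ratios, and -0.05 in both genotypes after quantile normalization. Values under these rescalings are given beside the calls they change.

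In WT mice, 6 of the 10 genes differed with diabetes. Sphk1, Sgpl1, Asah1, Acer3 and Sgms1 were higher and Smpd2 was lower, while Smpd1, Smpd3, Asah2 and Ugcg did not pass the test. Over all tested genes 46.1% passed, 36.2% as higher and 9.97% as lower, so the 6 of 10 was near the share for all genes. The diabetic and control values did not overlap for the same 6 genes, against 45.3% of all genes. In Cfb-/- mice Sphk1 and Sgpl1 passed as higher and Smpd2 as lower, 3 of the 9 genes other than Smpd3. The shares of all genes in that comparison were 33.8% called, 27.4% as higher and 6.4% as lower, and the groups of these 3 genes did not overlap, against 42.2% of all genes. Smpd3 was also called as higher and its groups did not overlap, although it was not called in WT mice. It entered the fit only because of its diabetic values, which favours a difference, so it is not read against those shares. Smpd2, Sphk1 and Sgpl1 thus passed in both genotypes, in the same direction, in comparisons that have no mouse in common. Of all tested genes 27.5% passed in both, so the 3 of 10 was near that share.

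**Figure D1:**
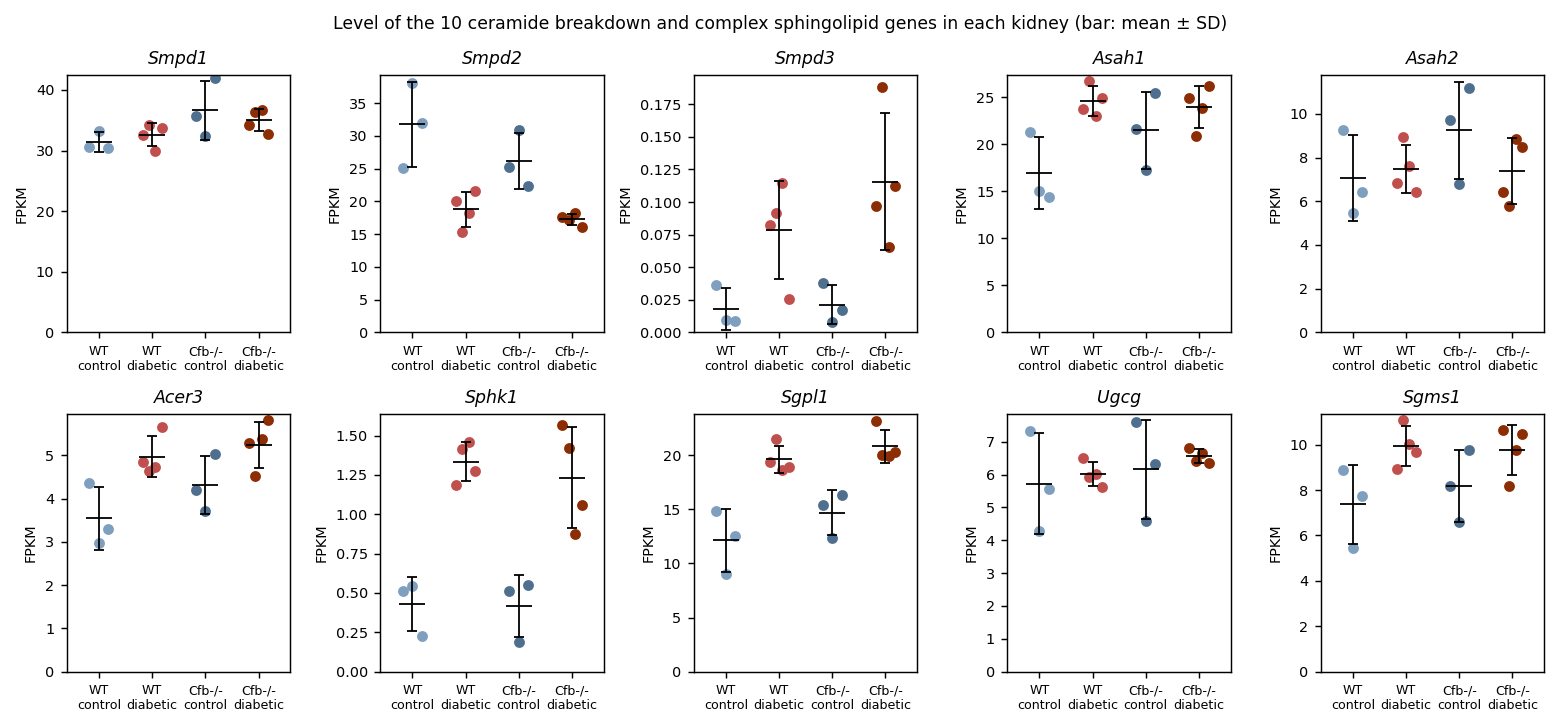
Level in FPKM (vertical axes, each from 0) of the 10 genes in each of the 14 kidneys, by group on the horizontal axes. Points are mice and the bars are the group mean ± SD. Diabetic and control mice were apart in both genotypes for Smpd2, which was lower, and for Sphk1 and Sgpl1, which were higher.

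The 10 genes lie on chromosomes 4 (Ugcg), 7 (Smpd1 and Acer3), 8 (Smpd3 and Asah1), 10 (Smpd2 and Sgpl1), 11 (Sphk1) and 19 (Asah2 and Sgms1) of GRCm38.p6. Smpd2 spans chr10:41487172-41490370, Sgpl1 chr10:61098642-61147684 and Sphk1 chr11:116530836-116536675. The promoters of these 3 genes are shown because theirs were the levels that differed with diabetes in both genotypes. Promoter windows from RefSeq (GRCm38.p6) were matched for 8 of the 10 genes, with none for Asah1 and Smpd3. Each is written 5′ to 3′ on the strand of its gene, cut to the longest stretch before the start of the window's transcript that lies outside every exon of GENCODE vM21, and capitals mark the motifs that were searched on both strands: the GC box GGGCGG, the CCAAT box CCAAT, the E-box CACGTG and the AP-1 motif TGACTCA.
Smpd2, minus strand, chr10:41490370-41490438: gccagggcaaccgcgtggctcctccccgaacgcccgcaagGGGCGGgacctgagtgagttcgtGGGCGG
Sgpl1, minus strand, chr10:61147704-61147934: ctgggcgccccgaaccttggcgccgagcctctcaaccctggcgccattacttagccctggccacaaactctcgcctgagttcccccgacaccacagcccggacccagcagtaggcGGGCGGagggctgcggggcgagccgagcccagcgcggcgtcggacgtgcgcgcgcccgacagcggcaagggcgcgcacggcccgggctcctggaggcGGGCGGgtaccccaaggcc
Sphk1, plus strand, chr11:116532194-116532443: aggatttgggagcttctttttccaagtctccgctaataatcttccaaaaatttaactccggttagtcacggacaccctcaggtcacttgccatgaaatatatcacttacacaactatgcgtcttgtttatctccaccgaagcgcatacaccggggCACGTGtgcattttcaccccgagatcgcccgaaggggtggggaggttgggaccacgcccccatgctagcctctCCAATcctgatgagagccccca
The Smpd2 stretch is the 69 bases between the GENCODE exons of Smpd2 and of Ppil6, which is transcribed the other way, and its last base is the first of the Smpd2 span in RefSeq. In the 250 bases before the start, 4 GC boxes and 1 E-box were found for Smpd2 and 3 GC boxes for Sgpl1, and the Sphk1 window held 1 CCAAT box and 1 E-box and no GC box. Sphk1 has 5 such windows in RefSeq, of which the one printed is the only one free of exons. It lies within the span of the gene, before 1 of its later starts. The overlapping Sphk1 windows at chr11:116531587-116531836 and chr11:116531661-116531910, which are not printed, each held 1 AP-1 motif. Of 32851 windows of that length, 32.7% held the GC box, 33.9% the CCAAT box, 6.02% the E-box and 4.46% the AP-1 motif. These matches describe the letters and were not tested as binding sites. Ppil6 did not pass the test for diabetes, with a log2 fold change of -0.16 (SE 0.23, adjusted p = 0.598) in WT mice and -0.16 (SE 0.23, adjusted p = 0.635) in Cfb-/- mice.

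By mean level over the 14 mice, which FPKM allows because it is per length, the order was Smpd1 at 33.9 FPKM, Smpd2 at 22.7, Asah1 at 22.1, Sgpl1 at 17.3, Sgms1 at 8.96, Asah2 at 7.73, Ugcg at 6.14, Acer3 at 4.61, Sphk1 at 0.914 and Smpd3 at 0.0639 FPKM. Smpd2 was below Smpd1 in 12 of 14 mice, the other 2 being WT controls. Smpd2 and Asah1 were not apart in this order: Asah1 was below Smpd2 in 5 of 14 mice, all of them controls. Asah2 was below Sgms1 in 9 of 14 mice. Sgpl1 was below Asah1, Sgms1 below Sgpl1, Sphk1 below Acer3 and Smpd3 below Sphk1 in 14 of 14 mice.

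Of the sphingomyelinases, Smpd2, which encodes a neutral sphingomyelinase, fell with diabetes in both genotypes. Its FPKM was 25.2, 38.1 and 32.0 in WT control mice and 20.0, 15.4, 18.2 and 21.6 in WT diabetic mice. The Cfb-/- controls were at 25.2, 30.9 and 22.4 and the Cfb-/- diabetic mice at 17.6, 17.2, 18.2 and 16.1. Every diabetic mouse was below every control mouse of either genotype. The log2 fold change was -0.75 (SE 0.15, adjusted p = 0.00127), a ratio of 0.597, in WT mice and -0.59 (SE 0.15, adjusted p = 0.00725), a ratio of 0.665, in Cfb-/- mice. Smpd2 passed under each of the 15 other settings tried in each genotype, with log2 fold changes from -1.02 to -0.60 in WT mice and from -0.83 to -0.46 in Cfb-/- mice.

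Smpd1, the lysosomal acid sphingomyelinase, had the highest mean of the 10 genes over the 14 mice. Its mean was 31.4 ± 1.61 FPKM (SD, n = 3) in WT control mice, 32.6 ± 1.92 (SD, n = 4) in WT diabetic mice, 36.7 ± 4.87 (SD, n = 3) in Cfb-/- control mice and 35.0 ± 1.81 (SD, n = 4) in Cfb-/- diabetic mice. The log2 fold change with diabetes was 0.05 (95% interval -0.15 to 0.26) in WT mice and -0.06 (-0.26 to 0.15) in Cfb-/- mice, with adjusted p-values of 0.664 and 0.665 from limma. With median-ratio scaling it was -0.23 (adjusted p = 0.104) in WT mice and -0.30 (adjusted p = 0.0477) in Cfb-/- mice, the latter past the threshold.

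Smpd3, which encodes the other well-known neutral sphingomyelinase, was close to the limit of measurement, with a highest value of 0.189 FPKM. It was 0.0366, 0.00927 and 0.00861 FPKM in WT control mice and 0.0822, 0.0914, 0.115 and 0.0257 in WT diabetic mice. Among Cfb-/- mice it was 0.0376, 0.00829 and 0.0175 FPKM in controls and 0.0968, 0.189, 0.0655 and 0.112 in diabetic mice. WT diabetic mouse 4 lay within the control values, and the Cfb-/- groups did not overlap. The log2 fold change was 0.58 (SE 0.25, adjusted p = 0.0704) in WT mice and 0.81 (SE 0.25, adjusted p = 0.0210) in Cfb-/- mice. At this level its size followed the pseudocount: with 0.01 FPKM added it was 1.65 in WT mice (adjusted p = 0.0399) and 2.04 in Cfb-/- mice, and in Cfb-/- mice it was 0.13 (adjusted p = 0.0513) with 1 FPKM added. In GENCODE vM21, exons of Smpd3 share 247 bases with exons of Prmt7 on the opposite strand, which was at 4.64 to 6.18 FPKM, and the strand setting of the quantification is not given in the sources used here. The Cfb-/- call was lost without diabetic mouse 2 (0.66, adjusted p = 0.0666), without control mouse 2 (0.73, adjusted p = 0.0816) and without control mouse 3 (0.79, adjusted p = 0.0571). In WT mice it was gained without diabetic mouse 4 (0.74, adjusted p = 0.0287).

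The ceramidases split by gene. Asah1, the lysosomal acid ceramidase, was at 21.4, 15.1 and 14.4 FPKM in WT control mice and at 23.8, 26.7, 23.0 and 24.9 in WT diabetic mice, with no overlap. The Cfb-/- mice had it at 21.6, 17.3 and 25.5 FPKM in controls and at 24.9, 20.9, 23.9 and 26.2 in diabetic mice, where the groups overlapped. The log2 fold change was 0.56 (SE 0.15, adjusted p = 0.00803) in WT mice and 0.17 (SE 0.15, adjusted p = 0.402) in Cfb-/- mice. That these differ was not shown: the interaction of genotype and diabetes was -0.39 (95% interval -0.83 to 0.06, adjusted p = 0.779). After median-ratio scaling the WT value was 0.28 (adjusted p = 0.117) and the Cfb-/- value -0.07. The annotated Asah1 gene overlaps Frg1, at 1.29 to 1.81 FPKM, but their exons share 0 bases.

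Acer3, an alkaline ceramidase of the endoplasmic reticulum and Golgi, was at 4.35, 2.98 and 3.29 FPKM in WT control mice and at 4.86, 4.64, 4.74 and 5.66 in WT diabetic mice. Its log2 fold change was 0.49 (SE 0.15, adjusted p = 0.0160) in WT mice, where the groups did not overlap, and 0.28 (SE 0.15, adjusted p = 0.161) in Cfb-/- mice, where they did. The WT call was lost without control mouse 2 (0.38, adjusted p = 0.0798), without control mouse 3 (0.45, adjusted p = 0.0549), with median-ratio scaling (0.22, adjusted p = 0.192) and with quantile normalization (0.10, adjusted p = 0.578). Asah2, the neutral ceramidase, ranged from 5.48 to 11.2 FPKM with overlap in every comparison. Its log2 fold change was 0.11 (95% interval -0.35 to 0.56, adjusted p = 0.702) in WT mice and -0.31 (-0.77 to 0.14, adjusted p = 0.274) in Cfb-/- mice. The ratio of Asah1 to Asah2 within a mouse, which a scaling factor per mouse leaves as it is, was 2.25 to 2.75 in WT control mice and 2.98 to 3.87 in WT diabetic mice, and 2.22 to 2.54 against 2.70 to 3.88 in Cfb-/- mice. It was higher in every diabetic mouse than in any control mouse of its genotype, and this ratio was chosen after its values were seen, so it was not tested.

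Sphk1 and Sgpl1, the genes among the 10 for enzymes on either side of sphingosine 1-phosphate, were both higher in diabetic kidneys. The other kinase gene, Sphk2, is not among the 10 and was more abundant, at a mean of 9.21 FPKM over the 14 mice against 0.914 for Sphk1. Sphk2 was lower with diabetes in WT mice (log2 fold change -0.40, limma adjusted p = 0.00876). It was not called in Cfb-/- mice (-0.14, adjusted p = 0.329), where it passed as lower with both rescalings. Sphk1 was at 0.514, 0.543 and 0.229 FPKM in WT control mice and at 1.18, 1.42, 1.46 and 1.28 in WT diabetic mice. Levels in Cfb-/- mice were 0.512, 0.191 and 0.549 FPKM in controls and 1.57, 1.42, 0.875 and 1.06 in diabetic mice. No diabetic mouse was as low as any control mouse. The log2 fold change was 1.5 (SE 0.30, adjusted p = 0.00140), a ratio of 2.82, in WT mice and 1.42 (SE 0.30, adjusted p = 0.00244), a ratio of 2.67, in Cfb-/- mice. On the log2(FPKM + 0.1) scale, Sphk1 alone among the 10 genes had an unadjusted p under 0.05 and a fold over 2 or under 0.5, the limits the study's methods name, which 17.5% of all genes met in WT mice and 14.9% in Cfb-/- mice. It kept its call when any mouse was left out and with median-ratio scaling, and lost it with quantile normalization, at 0.75 (adjusted p = 0.0534) in WT mice and 0.75 (adjusted p = 0.0608) in Cfb-/- mice. Exons of Sphk1 share 192 bases with those of Gm29292, an antisense transcript that was not analysed here.

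Sgpl1, the lyase that degrades sphingosine 1-phosphate, was at 14.8, 8.99 and 12.6 FPKM in WT control mice and at 19.4, 21.5, 18.7 and 18.9 in WT diabetic mice. In Cfb-/- mice it was at 15.4, 12.3 and 16.3 FPKM in controls and at 23.1, 20.0, 19.9 and 20.3 in diabetic mice. Again each diabetic mouse was above each control mouse. The log2 fold change was 0.72 (SE 0.15, adjusted p = 0.00146), a ratio of 1.64, in WT mice and 0.51 (SE 0.15, adjusted p = 0.0151), a ratio of 1.42, in Cfb-/- mice. The WT call held under each of the 15 other settings, from 0.44 to 0.88. The Cfb-/- call was lost with median-ratio scaling (0.27, adjusted p = 0.0847) and without control mouse 2 (0.39, adjusted p = 0.0879). The ratio of Sgpl1 to Smpd2 within a mouse was 0.236 to 0.589 in WT control mice and 0.878 to 1.40 in WT diabetic mice, and with the deletion 0.400 to 0.728 in controls against 1.10 to 1.31 in diabetic mice. This pair was likewise chosen after its values were seen.

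Of the synthases that use ceramide for complex sphingolipids, Sgms1 passed in WT mice and Ugcg in neither genotype. Sgms1, a sphingomyelin synthase of the Golgi, was at 8.90, 5.46 and 7.76 FPKM in WT control mice and at 8.94, 11.1, 10.0 and 9.69 in WT diabetic mice, so that the lowest diabetic mouse lay just above the highest control mouse. Its log2 fold change was 0.45 (SE 0.17, adjusted p = 0.0402) in WT mice and 0.27 (SE 0.17, adjusted p = 0.241) in Cfb-/- mice. The WT call was the weakest of the 6 and held under 5 of 15 other settings. It was lost without diabetic mouse 2 (0.40, adjusted p = 0.0933), 3 (0.44, adjusted p = 0.0710) or 4 (0.46, adjusted p = 0.0601), without control mouse 2 (0.25, adjusted p = 0.233) or 3 (0.50, adjusted p = 0.0559), and with median-ratio scaling (0.17) or quantile normalization (0.20). It also missed the threshold with no filter on low values (adjusted p = 0.0502) and with the WT mice alone in the fit (adjusted p = 0.0596). Ugcg, which makes glucosylceramide and so opens a route to glycosphingolipids, ranged from 4.28 to 7.59 FPKM. Its log2 fold change was 0.10 (95% interval -0.27 to 0.48, adjusted p = 0.651) in WT mice and 0.12 (-0.25 to 0.49, adjusted p = 0.627) in Cfb-/- mice, and both turned negative on rescaling. Its control values were the more scattered, with an SD of 1.53 FPKM in WT and 1.52 in Cfb-/- control mice against 0.361 and 0.223 in the diabetic groups. Asah2 and Sgms1 are neighbours on chromosome 19, with 19586 bases between them.

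**Figure D2:**
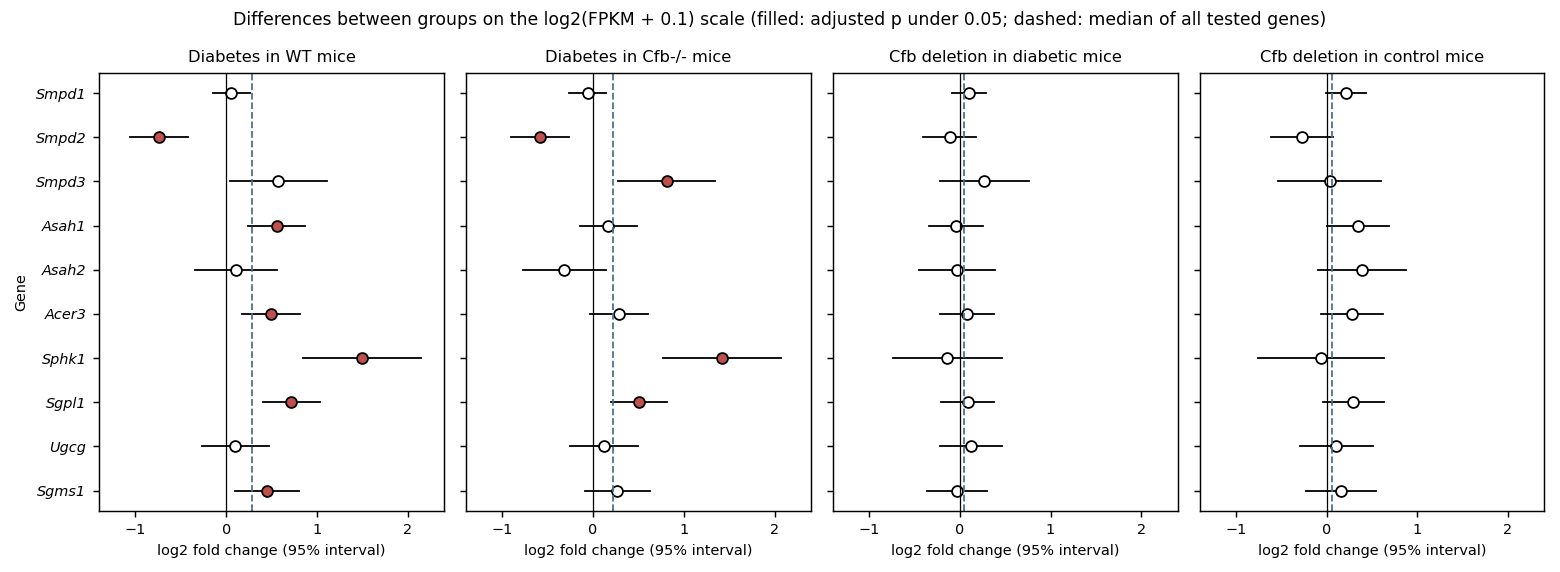
Log2 fold change (horizontal axes, points with 95% intervals) of each of the 10 genes (rows) in the 4 comparisons between groups. Filled points passed an adjusted p of 0.05 and the dashed line is the median of all tested genes. Filled points are seen for 6 genes in WT mice and 4 in Cfb-/- mice with diabetes, and for none in the comparisons of genotypes.

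For the 6 genes called in WT mice, the gene with the likest profile was taken as the one, among 11396, with the smallest root mean square difference of the centred log2 values over the 14 mice. Sgpl1 was closest to Kdm5b, a histone demethylase, at a difference of 0.0605 against a spread of 0.363 for Sgpl1 itself. Smpd2 was closest to Pth1r, the parathyroid hormone receptor, at 0.101 against 0.387. Asah1 was closest to Mfsd14b at 0.0713, Sgms1 to AI314180 at 0.0749, Acer3 to Actr2, a subunit of the Arp2/3 complex, at 0.0841, and Sphk1 to Nek6, a mitotic kinase, at 0.260. The next genes were nearly as close, such as Spata2l at 0.102 for Smpd2, Cast at 0.0662 for Sgpl1 and Tbc1d12 at 0.0734 for Asah1. A link between a gene and its likest gene was not tested.

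Deletion of Cfb left none of the 10 genes past the test in either state. In diabetic mice, limma called 0 of 10, against 0.00671% of all genes, which is Cfb alone, and 0 of 10 had an unadjusted p under 0.05, against 3% of all genes. The groups overlapped for all 10, against 2.75% of all genes without overlap. The log2 fold changes, Cfb-/- minus WT, ran from -0.14 for Sphk1 (95% interval -0.74 to 0.47) to 0.27 for Smpd3 (-0.22 to 0.76). For the genes that differed with diabetes in both genotypes, they were -0.11 for Smpd2 (-0.41 to 0.18) and 0.09 for Sgpl1 (-0.20 to 0.38). The interval for Smpd1, the narrowest, was -0.09 to 0.29, so changes of that size or smaller were not resolved with 4 mice against 4. In control mice, 0 of 10 were called, against 0.00671% of all genes, again Cfb alone, and the groups overlapped for all 10, against 13.8% of all genes without overlap. Asah1 alone had an unadjusted limma p under 0.05 (log2 fold change 0.34, adjusted p = 0.282), against 17.5% of all genes, and was called without WT control mouse 1 (0.52, adjusted p = 0.0387). The interaction of genotype and diabetes called 0% of all genes and 0 of the 10 by limma, and 0 of 10 had an unadjusted p under 0.05, against 5.77% of all genes. Its values ran from -0.42 for Asah2 (95% interval -1.06 to 0.22) to 0.23 for Smpd3 (-0.52 to 0.99).

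The calls depended on how mice were scaled against each other. With FPKM as deposited, all genes called in WT mice divided into 5392 higher and 1487 lower, with median-ratio scaling into 3404 and 3325, and with quantile normalization into 2366 and 2992. The division in Cfb-/- mice was 4083 and 955, then 2775 and 2075, then 2146 and 2228. Among the 10 genes it was 5 and 1, then 2 and 1, then 2 and 1 in WT mice. With median-ratio scaling these were Sphk1 and Sgpl1 above and Smpd2 below, and with quantile normalization Asah1 and Sgpl1 above and Smpd2 below. For Cfb-/- mice it was, with Smpd3 counted, 3 and 1, then 2 and 2, then 1 and 1. Those were Smpd3 and Sphk1 above and Smpd1 and Smpd2 below with median-ratio scaling, and Sgpl1 above and Smpd2 below with quantile normalization. Smpd2 passed under all 3 scalings in both genotypes, and Sgpl1 under all 3 in WT mice.

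**Figure D3:**
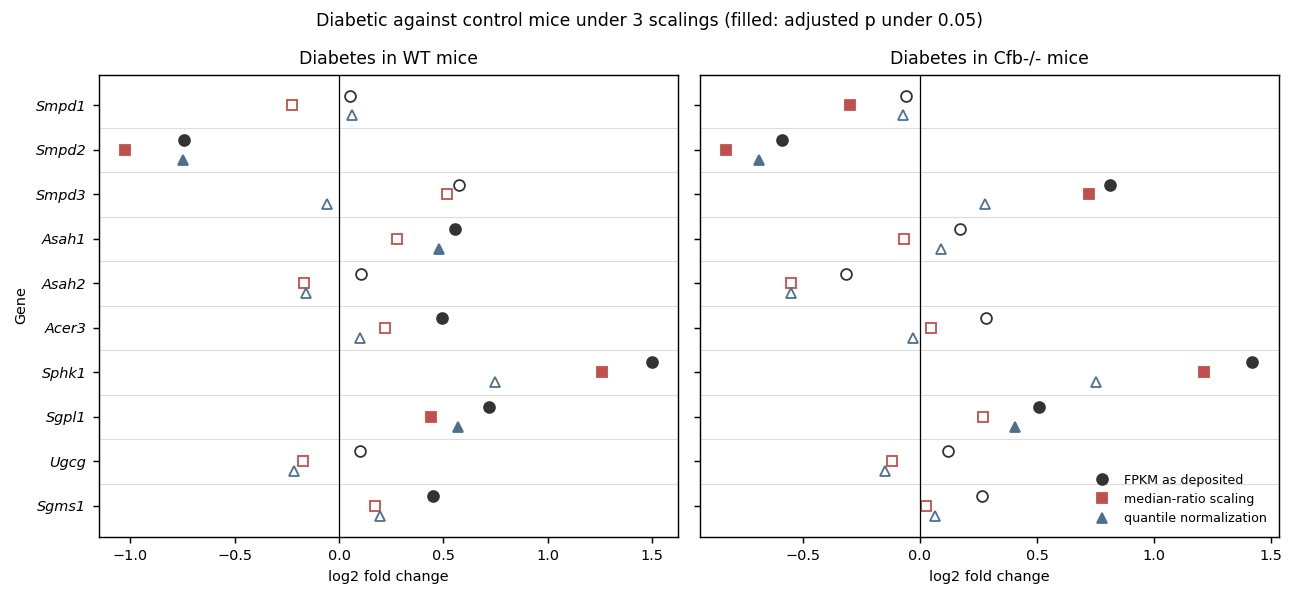
Log2 fold change with diabetes (horizontal axes) of the 10 genes (rows) in WT and Cfb-/- mice, with FPKM as deposited (circles), median-ratio scaling (squares) and quantile normalization (triangles). Filled symbols passed an adjusted p of 0.05. Smpd2 is filled under all 3 in both genotypes, at -1.02 to -0.75 in WT mice, while Sphk1 is open under quantile normalization.

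The other genes of sphingolipid metabolism were taken from 6 lists with 65 genes, of which 63 passed the filter. In WT mice 26 were higher and 7 lower with diabetes (52.4% called), where all tested genes had 36.2% higher and 9.97% lower. The 26 include Cers3, which passed the filter only because of its WT diabetic values. In Cfb-/- mice 23 were higher and 7 lower (47.6%), against 27.4% and 6.4%, and the counts of each list stand beside the same shares. The comparisons shared calls: 25 passed in both genotypes, all in the same direction, which is 75.8% of those called in WT mice and 83.3% of those called in Cfb-/- mice. Of all tested genes 4096 passed in both, 4089 of them in the same direction, or 59.5% and 81.3% of the genes called in each genotype. Over the 63 genes the median was 0.20 and 0.18, against 0.29 and 0.22 over all tested genes. With median-ratio scaling the calls were 18 higher and 21 lower in WT mice and 17 and 19 in Cfb-/- mice, and with quantile normalization 19 and 12, and 15 and 13. None of the 63 passed for Cfb deletion in diabetic or control mice by limma. An unadjusted limma p under 0.05 was found for 6 in diabetic mice, against 3% of all tested genes. In control mice it was found for 6, against 17.5% of all tested genes. The interaction called 0 of the tested genes by limma, so a call in 1 genotype alone does not show that the genotypes differed.

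Among the related sphingomyelinases and ceramidases, Smpdl3b rose more than any of the 10 in both genotypes, and Acer2 did so in WT mice alone. Of 7 genes 5 passed the filter, and Enpp7 and Acer1 were at 0 in most mice. Smpdl3b, a sphingomyelinase-like membrane protein, rose by a log2 fold change of 2.13 in WT mice (adjusted p = 2.59e-05) and 2.71 in Cfb-/- mice (adjusted p = 5.31e-06), from 0.299 ± 0.0700 FPKM (SD, n = 3) to 1.68 ± 0.554 (SD, n = 4) in WT mice. Acer2, a Golgi alkaline ceramidase, rose by 1.67 (adjusted p = 0.000159) and 0.86 (adjusted p = 0.0157). Smpdl3a, far more abundant with a WT control mean of 254 ± 10.5 FPKM (SD, n = 3), was lower at -0.45 (adjusted p = 0.0170) and -0.55 (adjusted p = 0.00686). Smpdl3a did not pass with quantile normalization in either genotype, and Acer2 did not in Cfb-/- mice (adjusted p = 0.104). Smpd4, a further neutral sphingomyelinase, passed in WT mice with quantile normalization alone (-0.38, adjusted p = 0.0135, against 0.07 as deposited). The list had a median of 0.13 in WT and 0.72 in Cfb-/- mice, which in both was the value of Smpd5. Smpd5 was low, at 0.0263 to 0.416 FPKM, and was called in neither genotype, so these medians do not describe the list as a whole.

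In the list of other sphingosine 1-phosphate genes, 7 of 13 were higher and 1 lower in each genotype, with 6 higher in both and 0 lower in both. The receptors S1pr2, S1pr1 and S1pr3 rose by 1.44, 1.14 and 1.004 in WT mice and by 1.49, 1.14 and 0.77 in Cfb-/- mice on the log2 scale. The phosphatase Sgpp2, which returns sphingosine 1-phosphate to sphingosine, rose by 1.05 and 0.73. All 4 also passed with both rescalings except S1pr3 in Cfb-/- mice with quantile normalization (0.41, adjusted p = 0.0538). The lower gene was Sphk2, the other sphingosine kinase, in WT mice (-0.40, adjusted p = 0.00876, against -0.14, adjusted p = 0.329, in Cfb-/- mice), and the phosphatase Sgpp1 in Cfb-/- mice (-0.57, adjusted p = 0.00771, against -0.18, adjusted p = 0.334, in WT mice). Sphk2 also passed in Cfb-/- mice with median-ratio scaling (-0.38, adjusted p = 0.0191) and quantile normalization (-0.34, adjusted p = 0.0289), and Sgpp1 in WT mice with median-ratio scaling (-0.46, adjusted p = 0.0273). The kinase genes Sphk1 and Sphk2 had opposite signs in WT mice. The median over the list was 0.34 in WT mice and 0.67 in Cfb-/- mice.

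De novo ceramide synthesis, the route that builds ceramide from serine and palmitate, had 5 of 17 genes higher and 2 lower in WT mice and 3 higher and 1 lower in Cfb-/- mice, with medians of 0.01 and -0.11. Sptlc2, a subunit of serine palmitoyltransferase, was higher at 0.46 and 0.36, Ormdl3, which restrains that enzyme, at 0.89 and 0.93, and the ceramide synthase Cers4 at 0.86 and 0.55. Sptlc2 did not pass with median-ratio scaling in either genotype, nor with quantile normalization in Cfb-/- mice. Cers4 did not pass with quantile normalization in either, nor with median-ratio scaling in Cfb-/- mice, where quantile normalization gave -0.05. Degs2, which adds a hydroxyl group to dihydroceramide, was lower at -1.69 (adjusted p = 5.35e-06) and -1.26 (adjusted p = 4.73e-05). Sptlc1, another subunit of serine palmitoyltransferase, was called as lower at -0.25 in WT mice (adjusted p = 0.0495) and was at -0.24 in Cfb-/- mice (adjusted p = 0.0740), where it passed with median-ratio scaling (-0.48, adjusted p = 0.00244) and quantile normalization (-0.36, adjusted p = 0.0063). Sptssb and Cers3 were called as higher in WT mice and not in Cfb-/- mice. Cers3 passed the filter only because of its WT diabetic values. Its call, counted among the 5 higher genes, is therefore not read against the shares of all genes. Sptssb was listed at 0 to 0.0249 FPKM in WT control mice and at 0, 8.99, 6.11 and 0.851 in WT diabetic mice, so the groups overlapped, and at 2.26, 0 and 1.86 in Cfb-/- control mice and up to 0.242 in Cfb-/- diabetic mice. Its WT call did not pass with quantile normalization (adjusted p = 0.0616). Every WT control mouse had Cers3 listed at 0, so no fold is given, and its range was 0.0432 to 0.551 FPKM among the WT diabetic mice. The summed urothelium markers moved with them, at 0.721, 36.7, 50.5 and 17.6 FPKM in the 4 WT diabetic mice in the same order and at 10.0, 0.636 and 10.2 in the Cfb-/- control mice, and their part in these values was not tested.

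Among ceramide transfer and headgroup genes, 3 of 8 were higher and 0 lower in WT mice and 2 higher and 1 lower in Cfb-/- mice, with medians of 0.11 and 0.05. Cerk, which phosphorylates ceramide, rose by 1.01 in WT mice and 1.28 in Cfb-/- mice, and the glycolipid transfer protein Gltp by 0.81 and 0.56. Fa2h, a fatty acid hydroxylase, rose by 1.38 in WT mice (adjusted p = 0.00623) and was at 0.53 in Cfb-/- mice (adjusted p = 0.267). Fa2h did not pass in WT mice with quantile normalization (adjusted p = 0.0809), nor Gltp in Cfb-/- mice with median-ratio scaling (adjusted p = 0.146). The lower gene in Cfb-/- mice was Plekha8, a glucosylceramide transfer protein, at -0.54 (adjusted p = 0.0164), which in WT mice passed with median-ratio scaling (-0.48, adjusted p = 0.0200) and quantile normalization (-0.49, adjusted p = 0.0268).

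Glycosphingolipid synthesis had 4 of 8 genes higher and 1 lower in WT mice and 4 higher and 2 lower in Cfb-/- mice, with medians of 0.49 and 0.61. The lactosylceramide synthases went opposite ways: B4galt6 rose by 1.71 and 1.05 and B4galt5, the more abundant, was lower at -1.20 and -1.42. These signs and calls were the same under all 3 scalings. B4galnt1, which makes complex gangliosides, rose by 2.12 and 1.93, and St3gal5, which makes the ganglioside GM3, by 0.77 and 0.97, although St3gal5 did not pass in WT mice with either rescaling, nor in Cfb-/- mice with quantile normalization. Gal3st1, a sulfatide synthase, was the other gene higher in WT mice at 0.60. With the deletion A4galt was the other one at 0.80, and Ugt8a, which makes galactosylceramide, was lower at -1.41 (adjusted p = 0.00120, against -0.67, adjusted p = 0.0581, in WT mice, where it passed with median-ratio scaling at -0.95, adjusted p = 0.0134). Neither Gal3st1 nor A4galt passed with either rescaling.

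Among genes of glycosphingolipid breakdown, 5 of 12 were higher and 2 lower in WT mice and 5 higher and 1 lower in Cfb-/- mice, with medians of 0.13 and 0.19. Hexa, a subunit of lysosomal hexosaminidase, rose by 0.96 and 1.39, the arylsulfatase Arsa by 0.92 and 0.81, the sialidase Neu3 by 0.79 and 0.81, the galactosidase Gla by 0.55 and 0.63, and Psap, the precursor of the saposins, by 0.61 and 0.51. Psap did not pass with median-ratio scaling, Gla and Neu3 did not with quantile normalization, and Gla in WT mice did with neither. Glb1 was lower at -0.30 and -0.55, and the sialidase Neu1 at -0.56 in WT mice (adjusted p = 0.00217) with -0.30 in Cfb-/- mice (adjusted p = 0.0703), where it passed with median-ratio scaling (-0.54, adjusted p = 0.00919). Glb1 in WT mice did not pass with quantile normalization. The genes of this list thus did not all have the same sign.

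**Figure D4:**
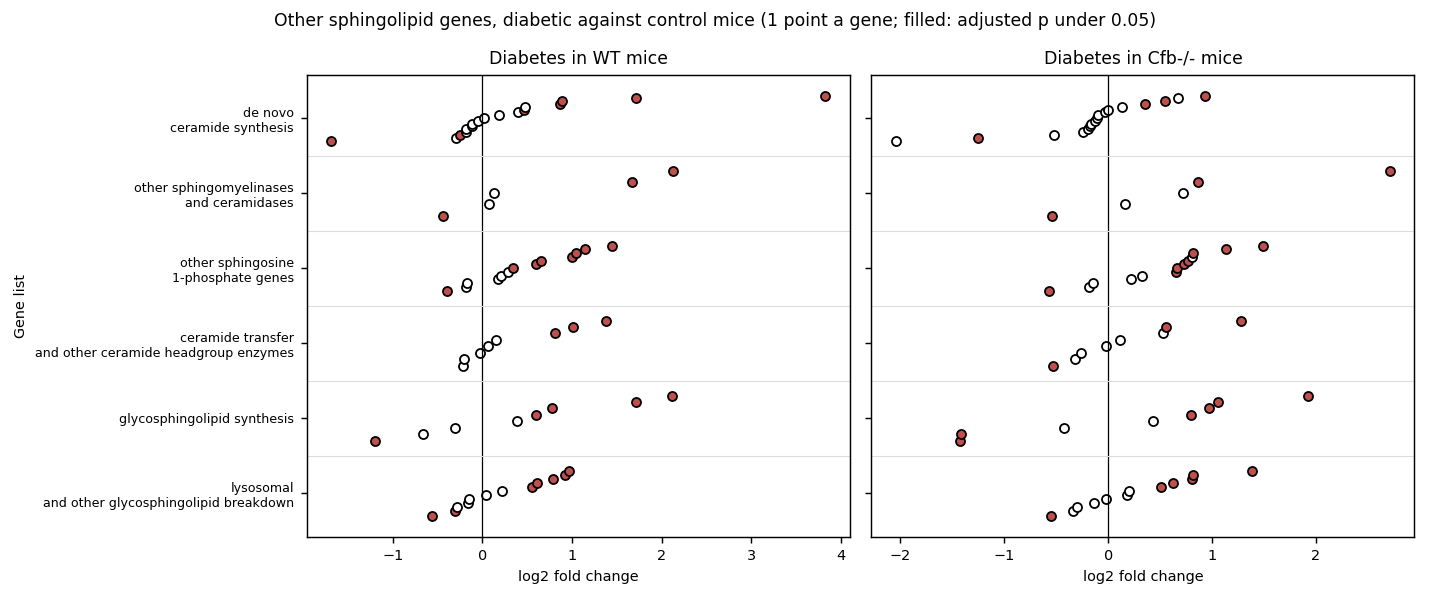
Log2 fold change with diabetes (horizontal axes) of the 63 other sphingolipid genes, 1 point a gene, in 6 lists (rows) for WT and Cfb-/- mice. Filled points passed an adjusted p of 0.05, 33 in WT mice and 30 in Cfb-/- mice, and lie on both sides of 0 in most lists.

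Several sets of markers of kidney cell types moved with diabetes along with these genes, with FPKM as deposited. Of all tested genes 36.2% were higher and 9.97% lower in WT mice, and 27.4% and 6.4% in Cfb-/- mice. Counts near those shares, such as those of the thick limb and distal tubule, are not read as a change. The summed FPKM of 8 proximal tubule markers, most of it Kap, was 45480 to 71339 in WT control mice and 11291 to 17464 in WT diabetic mice, and 43365 to 47332 against 7617 to 13853 in Cfb-/- mice, with 7 of 8 and 8 of 8 markers lower. The sum of 6 markers of injured tubule was 9.15 to 11.9 in WT control mice and 102 to 169 in WT diabetic mice, and 13.8 to 15.7 against 67.9 to 193 in Cfb-/- mice, with 6 of 6 higher in both. Krt20, counted among them, passed the filter only because of its diabetic values, so its calls are not read against the shares of all genes. For 6 macrophage markers the sums were 40.6 to 54.6 against 116 to 183, with 6 of 6 higher, and 33.4 to 49.6 against 113 to 196, with 5 of 6 higher. All 5 fibroblast markers were higher in both genotypes, with sums of 21.2 to 27.1 against 78.4 to 102 and 22.3 to 34.3 against 59.5 to 110. Podocyte markers were higher for 2 of 5 and 5 of 5 genes, endothelial markers for 3 of 5 and 4 of 5, T cell markers for 4 of 4 in both, B cell and plasma cell markers for 4 of 5 and 2 of 5, and markers of the thick limb and distal tubule for 2 of 6 and 1 of 6. The 6 urothelium markers were called as higher for 6 of 6 genes in WT mice and for 0 of 6 in Cfb-/- mice. Their sum was 0.279 to 0.744 FPKM in WT control mice and 0.721 to 50.5 in WT diabetic mice, so the groups overlapped. In Cfb-/- mice it was 0.636 to 10.2 in controls and 1.30 to 3.52 in diabetic mice. Of 6 adipocyte markers 5 were tested, of which 5 were higher in WT mice and 1 in Cfb-/- mice. Plin1 and Lep were at 0 in every WT control mouse and Plin1, Cfd and Lep at 0 in every Cfb-/- diabetic mouse. Adipoq, Plin1 and Cfd passed the filter only because of their WT diabetic values, so their calls are not read against the shares of all genes. The part of these cell types in the levels of the 10 genes was not tested, and in RNA from whole kidney fewer cells of a type and less RNA per cell cannot be told apart.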

How the data were processed

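RNA of 14 kidneys was made into TruSeq stranded mRNA libraries and sequenced from both ends on an Illumina HiSeq. The authors' processing notes name Trimmomatic, HISAT2, Cufflinks, HTSeq and DESeq, with no version, and GRCm38.p6. The deposited FPKM per gene (21878 genes, NCBI symbols), per sample and not pooled, were used as the authors made them; the FPKM unit was taken from these tools and from the values. The files give no counts, so each mouse's depth is unknown and no counting interval is given; a comparison of the steps between low FPKM values put relative depth between 0.838 and 1.

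Values were taken to log2(FPKM + 0.1), 14912 genes with at least 0.1 FPKM in at least 3 mice were kept, and limma 3.58.1 (trend; R 4.3.3) was fitted over the 4 groups, with Benjamini-Hochberg adjustment over all of them. The script was tested on simulated data. An exact permutation test could not reach 0.05 for 4 mice against 3 (smallest two-sided p 0.0571) or 3 against 3 (0.1). The labels do not say more of the replicates than that they are separate samples, so p-values measure the spread between these samples. Groups came from the sample titles; the labels give the control mice the diabetic treatment text, but their diet and disease entries are those of controls. At most 1 nonzero value per pair of mice was identical, so no pair of files held the same library.

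The 10 genes and the lists were chosen with earlier results of these data known. Named were all 10 genes, Cfb, up to 4 genes a list with the largest change among those called in WT mice at a mean of at least 1 FPKM, members of counts of 5 or fewer, and the gene with the likest profile. Alternatives covered the pseudocount, the filter, median-ratio and quantile scaling, the fit, the replicate block and leaving out each mouse.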

Additional observations from a re-analysis of the deposited data

Results flagged for a closer look

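Within the Cfb-/- diabetic group, Sgpl1 in mouse 1 stood apart from the other mice, at 23.1 FPKM against 20.3 FPKM in the nearest and 19.9 FPKM in the lowest, a gap of 0.889 of the group's range. This was the only such value in 20 groups of 4 mice examined, and chance gives about 1 in 20. The Cfb-/- mice kept the call for Sgpl1 with diabetes when that mouse was left out.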

How the results depend on the processing

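Under the other settings, the genes called with diabetes in WT mice numbered 3 with median-ratio scaling, 3 with quantile normalization and 4 to 6 with each mouse omitted in turn. The Cfb-/- comparison had 2 with quantile normalization and 2 to 4 on omitting each mouse (2 without control mouse 2). For Cfb deletion in control mice they numbered 0 to 1, and for Cfb deletion in diabetic mice and the interaction 0 throughout. The causes were not tested. With the replicate block 5 genes were called in WT mice and 4 in Cfb-/- mice, and 30 and 28 of the other sphingolipid genes, and the gene lost in WT mice was Sgms1 (0.44, adjusted p = 0.0503). The replicate numbers did not pair the mice: of 19 pairs, 3 had deviations that correlated over 0.1 (range -0.367 to 0.265).

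With median-ratio scaling, the log2 fold change in WT mice changed sign, to -0.23 for Smpd1, -0.17 for Asah2 and -0.17 for Ugcg, and in Cfb-/- mice -0.0698 for Asah1 and -0.12 for Ugcg. With quantile normalization it changed sign to -0.0574 for Smpd3, -0.16 for Asah2 and -0.22 for Ugcg in WT mice, -0.0279 for Acer3 and -0.15 for Ugcg in Cfb-/- mice, -0.10 for Smpd3 for Cfb deletion in control mice and 0.0042 for Sphk1 in the interaction. Leaving out each mouse also turned signs, within these ranges. With diabetes they were -0.0553 to 0.32 for Asah2 and -0.0868 to 0.29 for Ugcg in WT mice, and -0.14 to 0.0423 for Smpd1 and -0.0767 to 0.28 for Ugcg in Cfb-/- mice. For Cfb deletion in diabetic mice they were -0.0851 to 0.0241 for Asah1, -0.12 to 0.0795 for Asah2, -0.26 to 0.0035 for Sphk1 and -0.0768 to 0.0532 for Sgms1. For Cfb deletion in control mice they were -0.0588 to 0.15 for Smpd3, -0.37 to 0.32 for Sphk1, -0.0817 to 0.30 for Ugcg and -0.0420 to 0.30 for Sgms1. In the interaction they were -0.45 to 0.23 for Sphk1, -0.18 to 0.21 for Ugcg and -0.33 to 0.0142 for Sgms1.

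With 3 or 4 mice a group and FPKM without counts, small differences and genes near 0 FPKM such as Smpd3 were beyond resolution.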
